A study of Mus musculus with 12 samples.

Results

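This account covers 35 genes of fatty acid activation and beta-oxidation in activated mouse CD8+ T cells. The genes were taken by a list of symbols, and earlier results of these data were known when the list and its division by place were chosen. Of the genes, 24 act in mitochondria, 6 in peroxisomes, and 5 are the long-chain acyl-CoA ligases. All 35 have an identifier among the 55487 in each deposited table, and all 35 passed the low-count filter in both tables. The cells came from OT-1 mice, whose CD8+ T cells carry a transgenic T cell receptor against an ovalbumin peptide. There were 12 samples in 4 groups of 3. The groups Female and Male held splenic cells of each sex, stimulated for 3 days with beads carrying antibodies to CD3 and CD28, together with IL2. The groups WT and KD were a different batch, made only from male cells. These were electroporated and then kept in culture for 3 days with IL2, KD with Cas9 plus a guide RNA against KDM5D and WT with guide RNA but no Cas9. An effect of Cas9 itself and an effect of Kdm5d reduction therefore cannot be told apart. The age of the mice, their number, and whether replicates came from separate animals were not given in the labels, so p-values measure the spread between these samples, which may be technical.

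Fatty acids are activated to acyl-CoA by ligases, carried into mitochondria as carnitine esters, and shortened there by repeated rounds of dehydrogenation, hydration, a second dehydrogenation and thiolysis. Acyl-CoA dehydrogenases pass their electrons to electron transfer flavoprotein and from there to the respiratory chain, while peroxisomes shorten very-long-chain and branched fatty acids. In CD8+ T cells, effector expansion leans on glycolysis and lipid synthesis, and fatty acid oxidation is best known from memory cells.

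Total counts ranged from 78748647 to 110803318 per sample. Levels are given in CPM, counts divided by the TMM-scaled library size and multiplied by 1000000. The targeted gene Kdm5d, a Y-linked histone H3 lysine 4 demethylase, stood at 0 to 0.02 CPM in the Female samples and at 50.9 ± 1.33 CPM (SD, n = 3) in Male. It fell from 50.9 ± 2.22 CPM in WT to 22.0 ± 0.763 CPM in KD (log2 fold change -1.21, adjusted p = 3.13e-08). All 7 CD8 T cell markers were present in every group, with Thy1 the most abundant. Their summed level was 2270 to 2298 CPM in Female against 2454 to 2541 CPM in Male, and 3166 to 3260 CPM in WT against 2890 to 3093 CPM in KD. The higher Male sum came mostly from Thy1, at a mean of 685.8 CPM in Female and 1011.3 CPM in Male. Cd8a was at 534.6 to 539.4 CPM in Female against 491.7 to 506.3 CPM in Male. Cd8b1, Cd247 and Trac were also lower in every Male sample, while Cd3e was higher and Cd3g overlapped. Marker lists of CD4 T, B, myeloid, erythroid and NK cells summed to at most 7.17 CPM in any sample, and those of adipocytes and liver to at most 0.12 CPM. The myeloid sum, led by Cd68, was 2.27 to 3.02 CPM in Female against 3.32 to 3.51 in Male, and 6.2 to 7.17 in WT against 4.32 to 5.18 in KD, with C1qa and C1qb at 0 throughout. The NK sum was 0.165 to 0.457, 0.486 to 0.531, 1.5 to 1.6 and 0.59 to 1.24 CPM in the same order. The part of these marker differences in the results was not tested. In bulk RNA, fewer cells of one type and less RNA per cell cannot be told apart.

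Between Male and Female cells, ligase transcripts were mostly higher in Male and the peroxisomal ones mostly lower, and the mitochondrial ones were divided. Of the 35 genes, 14 were higher in Male and 18 lower at an adjusted p under 0.05, and Acadm, Echs1 and Acaa1b were not called. Among all 20208 genes tested, 23.5% were called higher and 26.3% lower. Whether the members' larger share of calls goes with their expression level was not tested. The members' median log2 fold change was -0.161, and that of all genes tested was 0.011. By place, a division that is given here as a description, 4 of 5 ligases were higher and 1 lower (median 0.475), 9 of 24 mitochondrial genes were higher and 13 lower (median -0.153), and 1 of 6 peroxisomal genes was higher and 4 lower (median -0.265). The mitochondrial median was -0.094 with transcript length and GC trends removed, and -0.047 when Eci2, Acad11 and Crat, which have also been placed in peroxisomes, were counted there. The peroxisomal median was -0.147 with those trends removed.

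Between KD and WT cells, fewer of the genes differed and more of them were lower in KD. Of the 35 genes, 6 were higher, 13 lower and 16 not called. Among all 20413 genes tested, 16.8% were called higher and 18.4% lower. The members' median was -0.075 and that of all genes tested 0.012. In the mitochondrial group 2 genes were higher and 10 lower (median -0.081, or -0.051 with upper-quartile scaling). In the peroxisomal group 1 was higher and 2 lower, and among the ligases 3 were higher and 1 lower.

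**Figure D1:**
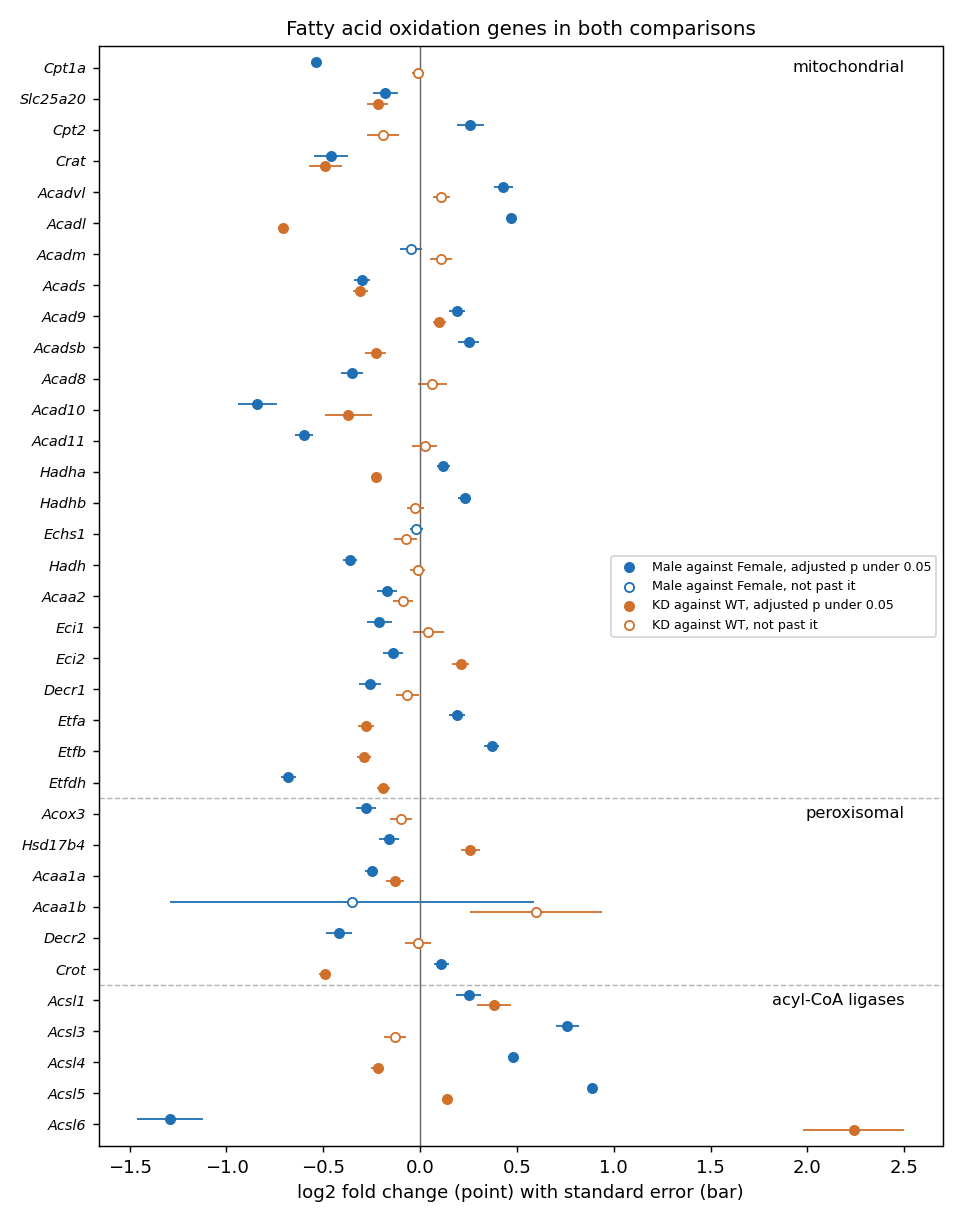
Log2 fold change of each of the 35 genes (x axis, points, with standard errors as bars) for Male against Female in blue and KD against WT in orange. Filled points passed an adjusted p of 0.05. Acsl6 lies farthest from 0 in both comparisons, at -1.29 and 2.24.

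The ligases attach coenzyme A to long-chain fatty acids, the step before either oxidation or incorporation into lipids. Acsl5 (chr19:55251938-55297720, plus strand, GRCm38) is a mitochondrial and endoplasmic reticulum form. It stood at 155.9, 157.3 and 155.5 CPM in the Female samples and at 289.3, 291.3 and 289.8 CPM in the Male samples. In the other table it stood at 283.1, 275.7 and 273.4 CPM in WT and at 301.9, 309.4 and 304.3 CPM in KD. Neither pair of groups overlapped, and the gap in the first pair was many times the spread of its replicates. The log2 fold change was 0.89 (SE 0.019, adjusted p = 2.18e-10) for Male against Female and 0.14 (SE 0.021, adjusted p = 0.000482) for KD against WT.

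Acsl4 (chrX:142317993-142390535, minus strand), which prefers arachidonate and other polyunsaturated fatty acids, is the X-linked member. Its level was 168.0, 166.5 and 166.2 CPM in Female and 240.1, 226.7 and 229.2 CPM in Male. It was 220.7, 218.8 and 226.3 CPM in WT and 192.8, 181.1 and 198.8 CPM in KD. The Male samples were thus the higher of the first pair, and the KD samples were the lower of the second. Fold changes were 0.48 (SE 0.025, adjusted p = 1.12e-07) and -0.22 (SE 0.033, adjusted p = 0.000494) on the log2 scale. The 100 bases before its RefSeq start (chrX:142390536-142390635, minus strand, GRCm38.p6) are shown because this gene went opposite ways in the 2 comparisons. Capitals mark a pair of overlapping GC boxes, GGGCGG or its reverse complement CCGCCC.
Acsl4: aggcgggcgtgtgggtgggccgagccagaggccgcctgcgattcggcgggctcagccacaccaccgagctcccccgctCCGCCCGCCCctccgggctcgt

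Acsl6 was the member with the largest fold changes and among the lowest levels. Its counts were 73 to 214 per sample in the first table and 23 to 204 in the second. Female samples held 2.51, 2.28 and 2.18 CPM and Male samples 1.06, 0.79 and 1.01 CPM. WT samples held 0.35, 0.35 and 0.24 CPM and KD samples 1.24, 1.88 and 1.32 CPM. The groups did not overlap in either table. Acsl6 fell by 1.29 on the log2 scale in Male (SE 0.17, adjusted p = 0.000119) and rose by 2.24 in KD (SE 0.26, adjusted p = 8.35e-05). It is best known as a brain form with a preference for docosahexaenoate.

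Acsl3, which works at lipid droplets and the endoplasmic reticulum, rose by 0.76 on the log2 scale in Male (15.2 ± 1.05 to 25.8 ± 1.19 CPM, adjusted p = 1.96e-06). In KD its change was -0.13 (adjusted p = 0.119). Acsl1, the main form of liver, heart and fat, was higher in Male by 0.25 (adjusted p = 0.00802) and in KD by 0.38 (adjusted p = 0.00689). It went from 11.3 ± 0.209 to 13.4 ± 0.868 CPM and from 11.3 ± 1.33 to 14.7 ± 1.03 CPM. Acsl1 and Acsl5 were the ligases higher in both comparisons.

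Counted per kilobase of exon, the makeup of the ligase pool shifted towards Acsl5 in both comparisons. Acsl5 made up 47.2%, 47.7% and 47.2% of the 5 genes' counts in the Female samples and 53.3%, 55.0% and 54.7% in the Male samples. It made up 56.1%, 55.6% and 54.7% in WT and 60.6%, 62.2% and 60.0% in KD. The share of Acsl4 was lower where that of Acsl5 was higher, at 45.5 ± 0.222% in Female against 39.1 ± 0.674% in Male and 39.9 ± 0.714% in WT against 34.3 ± 1.33% in KD. So the Acsl4 share was lower in Male although its level was higher there. Acsl5 and Acsl4 hold most of the pool, so a higher share of Acsl5 largely entails a lower share of Acsl4. The shifts of these shares are therefore not separate results. For these shares the groups did not overlap, and a two-sided exact permutation test gave p = 0.1, which is the lowest value possible with 3 samples against 3. The Acsl1 share went from 1.59% to 1.17% and from 1.05% to 1.36%, each with p = 0.1 by the same exact test. Acsl3 held 5.15 ± 0.359% in Female and 5.38 ± 0.178% in Male, where the groups overlapped (exact permutation p = 0.4, n = 3).

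**Figure D2:**
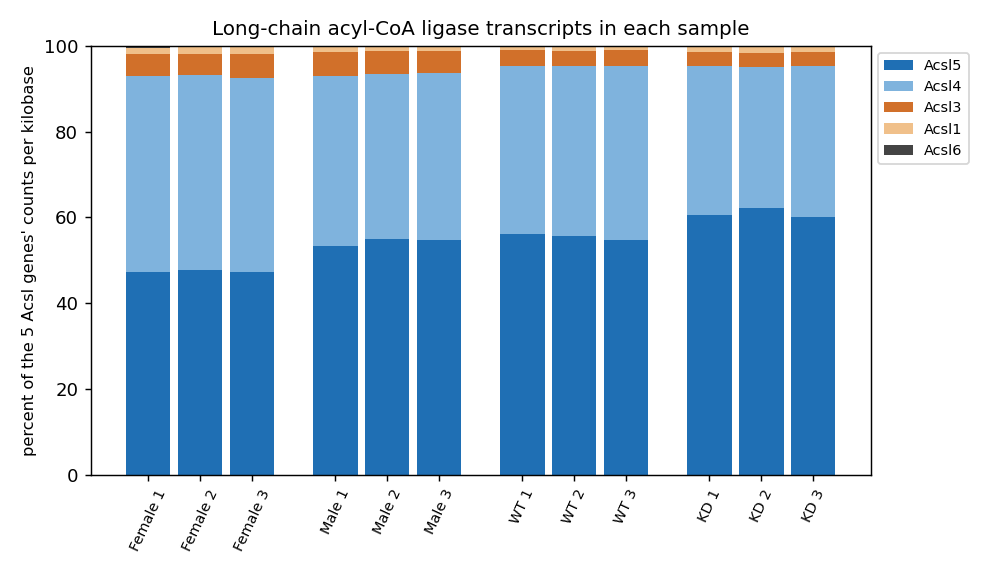
Share of each ligase gene in the summed counts per kilobase of the 5 Acsl genes (y axis, percent), with 1 stacked bar per sample. Acsl5 and Acsl4 fill most of each bar, and the Acsl5 part grows from a mean of 47.4% in Female to 54.3% in Male and from 55.4% in WT to 60.9% in KD.

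The carnitine shuttle moves long-chain acyl groups through the mitochondrial membranes. Cpt1a (chr19:3322334-3385733, plus strand), the outer-membrane transferase held to be rate-limiting for long-chain oxidation, stood at 105.7, 106.6 and 104.9 CPM in Female and at 73.49, 72.18 and 71.92 CPM in Male. In WT it stood at 61.98, 60.9 and 60.92 CPM and in KD at 59.27, 61.62 and 61.52 CPM. The first pair of groups lay far apart, and the second overlapped. The log2 fold change was -0.54 (SE 0.023, adjusted p = 2.18e-08) in Male and -0.0108 (SE 0.031, adjusted p = 0.834) in KD. With upper-quartile scaling the latter was 0.02, with length and GC trends removed 0.00874, and without KD replicate 1 it was 0.00725.

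Cpt2, the inner-membrane transferase that rebuilds the acyl-CoA, went the other way in Male, from 12.7 ± 0.322 to 15.2 ± 1.3 CPM (log2 fold change 0.26, adjusted p = 0.0108). That call was lost without Male replicate 2 (adjusted p = 0.0602). In KD, Cpt2 was lower by a log2 value of -0.19 that was not called (adjusted p = 0.105), but was called without WT replicate 3 (-0.276, adjusted p = 0.0167). The within-sample log2 ratio of Cpt1a to Cpt2 was 3.06 ± 0.032 in Female and 2.26 ± 0.143 in Male, without overlap (exact permutation p = 0.1, n = 3). It was 2.0 ± 0.152 in WT and 2.18 ± 0.052 in KD, where the groups overlapped (exact permutation p = 0.3, n = 3). Slc25a20, the carnitine-acylcarnitine carrier, was lower in Male by a log2 value of -0.18 (adjusted p = 0.0405) and in KD by -0.22 (adjusted p = 0.0107). The Male call was lost without Female replicate 1, Female replicate 3, Male replicate 1 or Male replicate 3 (adjusted p = 0.103, 0.106, 0.111 and 0.0696). It was also lost with the replicate number as a block (adjusted p = 0.0653), with no low-count filter (adjusted p = 0.0606) and with length and GC trends removed (adjusted p = 0.139). Crat, which exchanges short acyl groups between carnitine and coenzyme A, fell by 0.46 on the log2 scale in Male (adjusted p = 0.00114) and by 0.49 in KD (adjusted p = 0.0013). Its levels were low, between 6.35 and 11.39 CPM over the 12 samples.

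The straight-chain acyl-CoA dehydrogenases open each round and differ in the chain length they take. Acadl (chr1:66830839-66863277, minus strand), the long-chain form, rose in Male and fell in KD. It stood at 104.0, 107.5 and 104.3 CPM in Female and at 148.5, 146.0 and 142.3 CPM in Male. In WT it stood at 189.0, 190.1 and 194.8 CPM and in KD at 118.9, 114.3 and 116.8 CPM. Male samples were all above Female ones, and KD samples all below WT ones. Acadl rose by 0.47 in Male (SE 0.026, adjusted p = 1.41e-07) and fell by 0.71 in KD (SE 0.025, adjusted p = 1.75e-08), both on the log2 scale. The 100 bases before its RefSeq start (chr1:66863310-66863409, minus strand, GRCm38.p6) are printed because the gene went opposite ways in the 2 comparisons, with 4 GC boxes in capitals.
Acadl: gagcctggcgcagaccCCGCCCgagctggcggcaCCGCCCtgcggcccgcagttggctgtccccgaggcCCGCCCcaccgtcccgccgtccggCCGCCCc

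Acads, the short-chain form, did not share that pattern. The Female samples held 41.92, 41.65 and 42.82 CPM and the Male samples 35.85, 32.6 and 34.55 CPM. The WT samples held 33.14, 34.95 and 34.24 CPM and the KD samples 27.05, 27.81 and 27.8 CPM. It was lower in both comparisons without overlap, by log2 values of -0.3 (adjusted p = 0.000135) and -0.31 (adjusted p = 0.000139). The within-sample log2 ratio of Acadl to Acads was 1.32 ± 0.043 in Female against 2.09 ± 0.068 in Male, and 2.49 ± 0.038 in WT against 2.08 ± 0.049 in KD. Neither pair overlapped (exact permutation p = 0.1 for each, n = 3).

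Acadm, the medium-chain form, was called in neither comparison (25.1 ± 0.361 CPM in Female against 24.3 ± 1.95 in Male, adjusted p = 0.53, and 18.6 ± 0.943 in WT against 20.1 ± 1.09 in KD, adjusted p = 0.165). Without Male replicate 2 it was called lower in Male (-0.122, adjusted p = 0.0495). Acadvl, the membrane-bound very-long-chain form, was at 33.82, 32.35 and 36.4 CPM in Female and at 48.28, 44.06 and 45.73 CPM in Male, a rise of 0.43 on the log2 scale (adjusted p = 4.26e-05). In KD its log2 change of 0.11 was not called (adjusted p = 0.0778), but it was with upper-quartile scaling (adjusted p = 0.0304), with the replicate block (adjusted p = 0.0423) and without KD replicate 2 (adjusted p = 0.0245). Of the Acadvl exons, 42.85% overlap those of Dvl2 on the opposite strand, and the use of strand in counting is not given in the sources used here. Acad9, also an assembly factor of respiratory complex I, was higher in Male by 0.19 (adjusted p = 0.00414) and in KD by 0.1 (adjusted p = 0.0418). The KD call of Acad9 did not hold without any 1 of the 6 samples (adjusted p = 0.0611 to 0.117), in DESeq2 (0.0909), with no low-count filter (0.0613) or with the replicate block (0.057).

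Of the 4 dehydrogenases of branched chains or other substrates, 3 were lower in Male and 1 higher. Acad10 fell by 0.84 on the log2 scale (11.8 ± 0.255 to 6.57 ± 0.991 CPM, adjusted p = 6.66e-05), Acad11 by 0.6 (28.2 ± 1.18 to 18.6 ± 0.575 CPM, adjusted p = 1.79e-06) and Acad8, the isobutyryl-CoA dehydrogenase of valine breakdown, by 0.35 (adjusted p = 0.000456). Acadsb, which takes short branched chains from isoleucine, was the 1 that rose, by 0.25 (adjusted p = 0.00318), and it fell in KD by 0.23 (adjusted p = 0.00734). In KD, Acad11 and Acad8 changed by 0.0229 and 0.0633 (adjusted p = 0.829 and 0.568), and that of Acad11 was -0.034 without WT replicate 3 and -0.021 without KD replicate 2. Acad10 was lower in KD by a log2 value of -0.37 (adjusted p = 0.0325), a call lost without WT replicate 1, WT replicate 3, KD replicate 1 or KD replicate 2 (adjusted p = 0.0593, 0.122, 0.094 and 0.094). Acad10 shares 24.239% of its 31-base subsequences with other genes, chiefly Acad12, so its counts are uncertain.

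**Figure D3:**
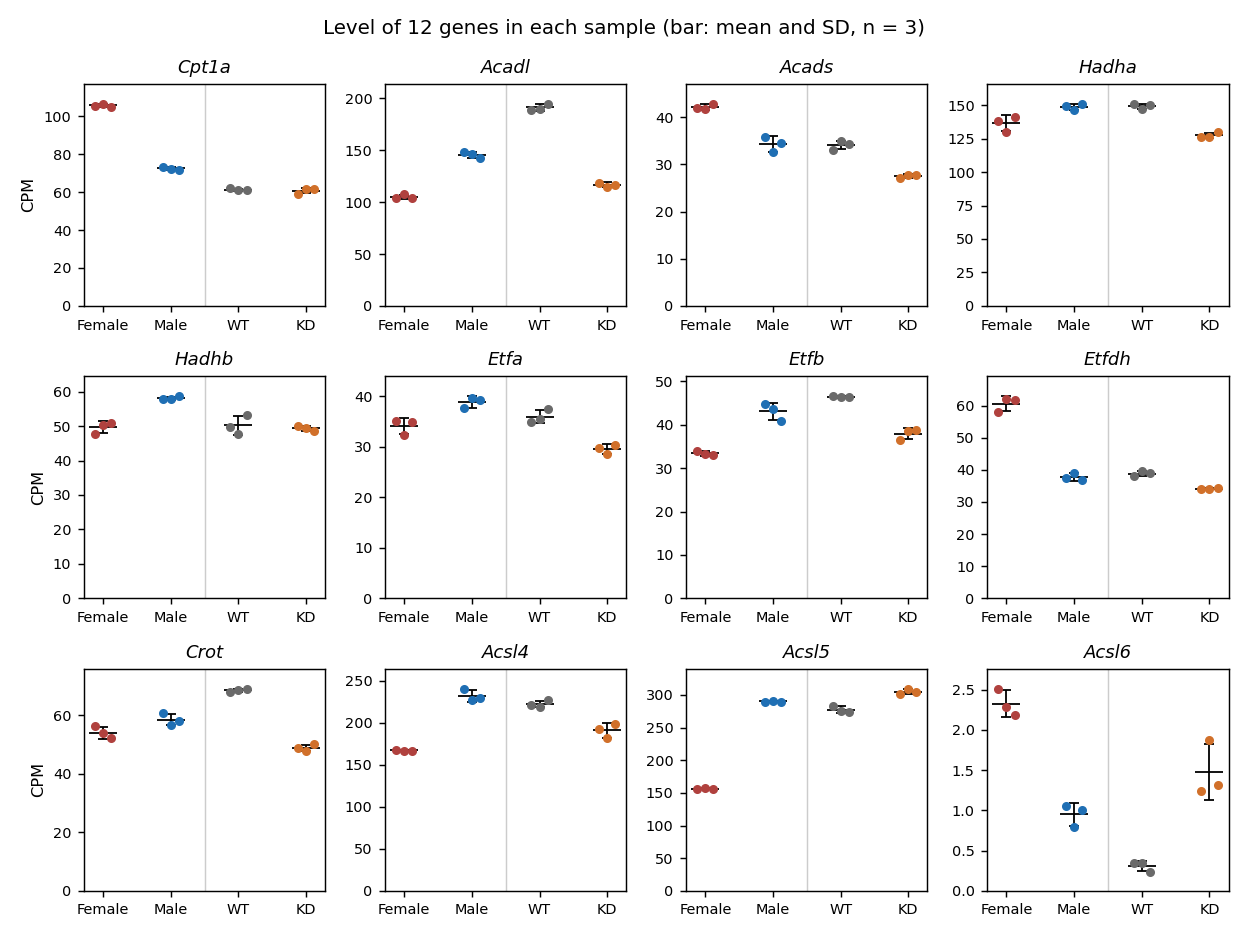
Level in CPM (y axis, from 0) of 12 of the genes in each of the 12 samples, as points, with the mean and SD of each group of 3 as black bars. The grey line separates the 2 tables, which were normalized separately. Acadl rises from 105.3 to 145.6 CPM between Female and Male and falls from 191.3 to 116.7 CPM between WT and KD, and Acads is lower in the second group of each pair.

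The trifunctional protein carries out the last 3 steps of each long-chain round. Its subunits are encoded by Hadha (chr5:30118304-30155162, minus strand) and Hadhb (chr5:30155248-30184593, plus strand), which lie head to head. The 85 bases between their GENCODE starts (chr5:30155163-30155247, plus strand, GRCm38.p6) are shown because they lie before both genes. Capitals mark 2 GC boxes.
Hadha and Hadhb: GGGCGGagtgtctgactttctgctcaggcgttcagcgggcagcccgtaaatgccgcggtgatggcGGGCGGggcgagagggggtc

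Hadha stood at 138.4, 130.2 and 141.2 CPM in Female and at 149.2, 146.4 and 150.8 CPM in Male. It stood at 150.6, 147.0 and 149.8 CPM in WT and at 125.9, 126.3 and 129.9 CPM in KD. Hadha was higher in Male by 0.12 (SE 0.032, adjusted p = 0.00804) and lower in KD by a log2 value of -0.23 (SE 0.024, adjusted p = 4.4e-05), with no overlap in either pair. Hadhb was at 47.69, 50.27 and 50.95 CPM in Female and at 57.9, 57.78 and 58.63 CPM in Male, a rise of 0.23 on the log2 scale (adjusted p = 0.000175). In WT it was at 49.6, 47.62 and 53.3 CPM and in KD at 50.06, 49.37 and 48.55 CPM, which overlapped (-0.0246, adjusted p = 0.722, and 0.018 without WT replicate 3). The log2 ratio of Hadha to Hadhb within a sample was 1.6, 1.63 and 1.49 in WT and 1.33, 1.35 and 1.42 in KD. The ratios did not overlap (exact permutation p = 0.1, n = 3). Between Female and Male the ratio went from 1.46 ± 0.083 to 1.36 ± 0.013. The lowest Female ratio and the highest Male ratio both round to 1.37, so these groups were barely apart. Hadhb shares 23.694% of its 31-base subsequences with other genes, chiefly Gm13910.

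Separate enzymes take shorter chains through the later steps, and 2 of the 3 measured were lower in Male. Hadh, the 3-hydroxyacyl-CoA dehydrogenase of medium and short chains, fell by 0.36 on the log2 scale in Male (54.3 ± 2.19 to 42.3 ± 0.699 CPM, adjusted p = 1.34e-05). In KD it was at 37.2 ± 1.33 CPM against 37.5 ± 0.747 in WT (-0.0126, adjusted p = 0.85, and 0.018 with upper-quartile scaling). Acaa2, the mitochondrial 3-ketoacyl-CoA thiolase, was lower in Male by a log2 value of -0.17 (adjusted p = 0.0194), a call lost without Female replicate 3 (adjusted p = 0.0675). Its KD change was -0.088 (adjusted p = 0.215). Echs1, the short-chain enoyl-CoA hydratase, was called in neither, at 37.5 ± 0.477 CPM in Female against 37.0 ± 0.912 in Male and 27.6 ± 2.2 in WT against 26.2 ± 1.21 in KD (adjusted p = 0.68 and 0.401).

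Unsaturated fatty acids need auxiliary enzymes that move or reduce their double bonds, and all 3 of the mitochondrial ones measured were lower in Male. Decr1, the 2,4-dienoyl-CoA reductase, fell by 0.26 on the log2 scale (18.1 ± 0.999 to 15.1 ± 0.503 CPM, adjusted p = 0.00313). Eci1, an enoyl-CoA isomerase, fell by 0.21 (adjusted p = 0.019), a call lost without Female replicate 2 (adjusted p = 0.0588) or Male replicate 3 (adjusted p = 0.0622). The isomerase Eci2 was lower in Male by a log2 value of -0.14 (adjusted p = 0.048). That call was lost without Female replicate 1, Female replicate 3, Male replicate 2 or Male replicate 3 (adjusted p = 0.0836, 0.151, 0.096 and 0.163), and in 7 of the 10 alternatives with all replicates. These were DESeq2 (0.0721), limma-voom (0.0547), upper-quartile scaling (0.0512), no low-count filter (0.0568), a minimum of 1 CPM in 3 samples (0.0624), the replicate block (0.0694) and removal of length and GC trends (0.339). In KD, Eci2 was higher, at 26.94, 27.02 and 25.17 CPM against 22.33, 22.46 and 23.62 CPM in WT (0.21, adjusted p = 0.00456). Decr1 and Eci1 were not called there (-0.0663 and 0.0433, adjusted p = 0.45 and 0.724, with Eci1 at -0.019 without KD replicate 2).

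Electron transfer flavoprotein takes the electrons of the acyl-CoA dehydrogenases and hands them to its ubiquinone oxidoreductase. The 2 flavoprotein subunits, Etfa (chr9:55454508-55512243, minus strand) and Etfb (chr7:43444083-43457800, plus strand), rose in Male and fell in KD. The oxidoreductase gene Etfdh (chr3:79603788-79629500, minus strand) was lower in both. The 100 bases before the RefSeq starts of the subunit genes (chr9:55512244-55512343, minus strand, and chr7:43443972-43444071, plus strand, GRCm38.p6) are set together because the genes had the same directions in both comparisons. Capitals mark 2 CCAAT boxes in each, CCAAT or its reverse complement ATTGG. Acadl, Acadsb, Acsl4, Crot and Hadha had these directions too. Of them, only Crot had a CCAAT box in the 250 bases before its start. Genes with other directions had a CCAAT box there too. Among them were Acaa1a and Etfdh, lower in both comparisons, and Eci2, lower in Male and higher in KD. Cpt1a and Hadh, called lower in Male only, were others. In the promoters described below, 15 of the 30 members present had this box. A link between the box and the directions was not tested.
Etfa: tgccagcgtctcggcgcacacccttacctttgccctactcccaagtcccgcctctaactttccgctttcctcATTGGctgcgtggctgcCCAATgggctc
Etfb: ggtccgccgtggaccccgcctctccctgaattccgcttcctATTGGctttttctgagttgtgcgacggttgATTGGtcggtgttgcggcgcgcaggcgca

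Etfa stood at 35.11, 32.33 and 34.86 CPM in Female against 37.56, 39.7 and 39.21 CPM in Male. In the other table its WT samples held 34.84, 35.56 and 37.47 CPM and its KD samples 29.75, 28.54 and 30.37 CPM. All Male samples lay above the Female ones and all KD samples below the WT ones. Etfb stood at 33.99, 33.3 and 32.95 CPM in Female against 44.76, 43.5 and 40.91 CPM in Male. Its WT samples held 46.52, 46.3 and 46.29 CPM and its KD samples 36.43, 38.63 and 38.8 CPM. These groups did not overlap either. Etfa changed by 0.19 in Male (adjusted p = 0.00396) and -0.28 in KD (adjusted p = 0.000537), and Etfb by 0.37 (adjusted p = 2.53e-05) and -0.29 (adjusted p = 0.00016), on the log2 scale. The Male call of Etfa was lost with length and GC trends removed (0.077, adjusted p = 0.173). Of the Etfb exons, 53.01% overlap the transcript Gm45233 on the same strand, so its counts are uncertain.

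Etfdh was at 57.87, 62.16 and 61.59 CPM in Female and at 37.61, 38.95 and 36.69 CPM in Male. In WT it was at 38.11, 39.52 and 38.92 CPM and in KD at 34.11, 33.97 and 34.37 CPM. It fell by 0.68 on the log2 scale in Male (SE 0.038, adjusted p = 1.52e-07) and by 0.19 in KD (SE 0.035, adjusted p = 0.002). The within-sample log2 ratio of Etfa to Etfdh rose from -0.83 ± 0.111 in Female to 0.04 ± 0.05 in Male, and was -0.11 ± 0.051 in WT against -0.21 ± 0.038 in KD. The ratio of Etfa to Etfb went from 0.03 ± 0.064 in Female to -0.15 ± 0.097 in Male without overlap (exact permutation p = 0.1, n = 3). It was -0.37 ± 0.057 in WT and -0.36 ± 0.072 in KD, where the groups overlapped (exact permutation p = 0.9, n = 3).

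The peroxisomal genes were mostly lower in Male and moved in both directions in KD. Crot (chr5:8966033-8997324, minus strand), which makes carnitine esters of the medium-chain products that leave peroxisomes, was at 67.94, 68.6 and 68.89 CPM in WT and at 48.61, 47.91 and 49.99 CPM in KD. It fell by 0.49 on the log2 scale (SE 0.031, adjusted p = 1.16e-06), the smallest p of the 35 genes in KD after that of Acadl. In Male, Crot was higher by 0.11 (56.22, 53.74 and 52.09 CPM in Female, 60.62, 56.72 and 58.05 in Male, adjusted p = 0.0272). That call was lost without Female replicate 2, Female replicate 3, Male replicate 1 or Male replicate 3 (adjusted p = 0.0726, 0.112, 0.124 and 0.0565), and also with no low-count filter (0.0833).

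Decr2, the peroxisomal dienoyl-CoA reductase, fell in Male by 0.42 on the log2 scale (15.2 ± 1.17 to 11.3 ± 0.198 CPM, adjusted p = 0.000409), and its KD change was -0.0125 (adjusted p = 0.914, 0.018 with upper-quartile scaling). Acox3, the oxidase of branched acyl-CoA, was lower in Male by a log2 value of -0.28 (adjusted p = 0.00117), a call lost with length and GC trends removed (-0.119, adjusted p = 0.0958). Its KD change was -0.1 (adjusted p = 0.193). Acaa1a, a peroxisomal thiolase, fell by 0.25 in Male (adjusted p = 0.00017) and by 0.13 in KD (adjusted p = 0.0466). The KD call of Acaa1a was lost without WT replicate 1, WT replicate 2, KD replicate 2 or KD replicate 3 (adjusted p = 0.127, 0.144, 0.139 and 0.074), with the replicate block (0.0632), with upper-quartile scaling (0.119), with no low-count filter (0.0581) and with a minimum of 1 CPM in 3 samples (0.0546).

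Hsd17b4, the bifunctional hydratase and dehydrogenase of peroxisomes, was lower in Male by a log2 value of -0.16 (adjusted p = 0.0269) and higher in KD by 0.26 (adjusted p = 0.00209). WT samples held 26.19, 25.55 and 24.64 CPM and KD samples 28.64, 32.04 and 30.86 CPM, which did not overlap. The Male call was lost without Female replicate 2, Male replicate 2 or Male replicate 3 (adjusted p = 0.0928, 0.0562 and 0.0911). Acaa1b, the second thiolase gene, lay between 0 and 1.67 CPM over all samples and was called in neither comparison (adjusted p = 0.787 and 0.21). It shares 50.052% of its 31-base subsequences with other genes, chiefly Acaa1a. Acaa1a in turn shares 23.361%, chiefly with Acaa1b. In all, 10 members share over 10%, among them Acad9 (20.643%), Eci2 (17.328%), Etfa (10.889%) and Echs1 (10.199%), so their counts are less certain too.

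Of the 35 genes, 19 were called in both comparisons, and 25.7% of the 19529 genes tested in both were. Of these 19, 10 had opposite directions, or 52.6%, close to the 55.1% of all genes called in both. Acadl, Acadsb, Acsl4, Crot, Etfa, Etfb and Hadha rose in Male and fell in KD, whereas Acsl6, Eci2 and Hsd17b4 fell in Male and rose in KD. Leaving out 1 sample at a time gave 7 to 11 such genes, and the Male calls of Crot, Eci2 and Hsd17b4 were among those lost without single samples, as given above. Acad9, Acsl1 and Acsl5 were higher in both. Acaa1a, Acad10, Acads, Crat, Etfdh and Slc25a20 were lower in both. The KD calls of Acad9, Acaa1a and Acad10 and the Male call of Slc25a20 were also lost without single samples, as given above. A further 13 were called between the sexes and not in KD, among them Cpt1a, Acsl3, Acad11, Hadh, Hadhb and Decr2. The share of all genes called between the sexes only was not counted, so the 13 are given as a description. Calls between the sexes were common, at 23.5% of all genes tested higher and 26.3% lower in Male. For these 13, a change in KD that misses the threshold does not show that none occurred. The difference between the comparisons was not tested. The comparisons share no sample.

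**Figure D4:**
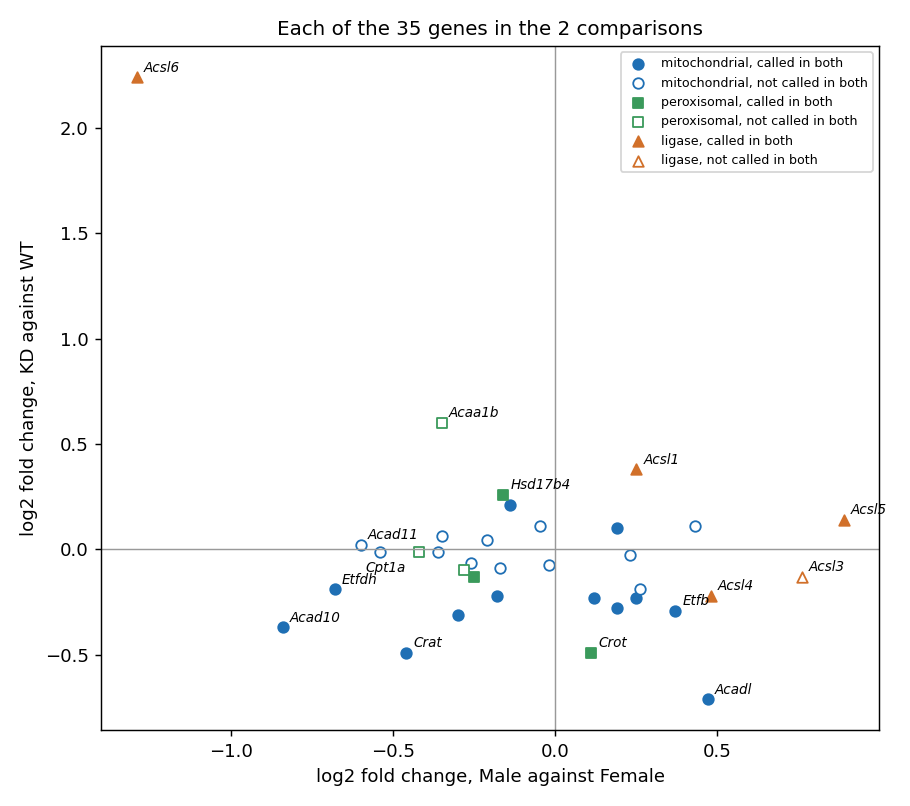
Log2 fold change of each of the 35 genes for Male against Female (x axis) and KD against WT (y axis). Circles are mitochondrial, squares peroxisomal and triangles ligase genes, filled where called in both. At the lower right lies Acadl at 0.47 and -0.71, and Acsl6 lies alone at the upper left at -1.29 and 2.24.

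By level per kilobase of exon, the order of the genes was much the same in the 4 groups at its top. Acadl came first in Female (52.5 ± 0.969 CPM per kilobase), Male (72.6 ± 1.56) and WT (95.4 ± 1.53), followed by Acsl5, Acsl4 and Etfb in each. In KD, Acsl5 was first at 62.7 ± 0.785 and Acadl second at 58.2 ± 1.14, and their samples did not overlap. Acsl5 and Acsl4 were close in Female, at 32.0 to 32.3 and 30.7 to 31.1 CPM per kilobase, and apart in Male, at 59.5 to 59.9 and 41.9 to 44.4. Acsl6 was last in each group, between 0.0315 in WT and 0.234 in Female as means, and Acaa1b came before it. The tables were normalized separately, so no level was tested between them.

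Short motifs were looked for in the RefSeq promoters (250 bases before to 50 after the start, GRCm38.p6, both strands), which were present for 30 of the 35 genes as 33 promoters. The GC box GGGCGG was in 78.8% of the member promoters and in 35.7% of all 32851 promoters. CCAAT was in 48.5% and 37.4%. The NRF1 element GCGCATGCG, whose factor is known from genes of the respiratory chain, was in 9.09% (Acad10, Acadm and Etfdh) and in 1.75% of all. The response element of estrogen-related receptors, TCAAGGTCA, was in 3.03% (Acsl6) and 0.423%, and the sterol element core TCACCCCAC in 3.03% (Acsl1) and 0.551%. The E-box CACGTG was in no member promoter and in 7.15% of all. No motif's letters contain another's, though matches of 1 motif may overlap, as in Acsl4. These are matches of letters and not measured sites. All members passed the low-count filter, but the 32851 promoters were not limited to genes that did. No comparison with such genes was made, so the shares are descriptions.

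Among 89 other genes of fatty acid metabolism, listed by role, 78 were tested between the sexes, with 17 higher and 32 lower in Male, and 77 in the other table, with 14 higher and 29 lower in KD. Over all genes tested, 23.5% were higher and 26.3% lower in Male, and 16.8% and 18.4% in KD, and the counts of the single lists below are given as descriptions beside these shares. In uptake and binding (10 tested), 2 were higher and 4 lower in Male, and 2 were higher and 2 lower in KD. Dbi, the acyl-CoA binding protein, rose in Male from 14.6 ± 0.566 to 38.3 ± 2.37 CPM (log2 1.39, adjusted p = 1.14e-08). Fabp5, a fatty acid binding protein, rose in Male by 0.87 (adjusted p = 2.61e-08) and in KD by 0.54 (adjusted p = 2.48e-05). Cd36, the fatty acid translocase, fell by 1.28 in Male (adjusted p = 3.57e-07) and rose by 0.95 in KD (adjusted p = 0.000471). Slc22a5, the carnitine importer, fell by 0.52 in Male (adjusted p = 9.23e-05). It shares 37.843% of its 31-base subsequences with other genes, chiefly Slc22a21, so its counts are uncertain. Acot11 (19.319%) and Bdh1 (12.33%), named below, also share over 10%. The acyl-CoA binding gene Acbd5 fell by 0.4 in KD (adjusted p = 8.12e-05).

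Among other activating enzymes (6 tested), 1 was higher and 2 lower in Male, and 0 were higher and 4 lower in KD. Acss1, the mitochondrial acetyl-CoA synthetase, fell from 60.1 ± 0.815 to 27.7 ± 0.741 CPM in Male (-1.12, adjusted p = 1.72e-09). In KD the falls were led by the cytosolic form Acss2 (-0.61, adjusted p = 4.5e-05) and by Acsbg1 (-0.58, adjusted p = 9.83e-06). Of 8 thioesterases, which free fatty acids from coenzyme A, 1 was higher and 4 lower in Male, and 1 was higher and 3 lower in KD. Acot7 rose in Male by 0.57 (adjusted p = 6.67e-08), and Acot11 fell in KD by 0.56 (adjusted p = 4.73e-06).

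Malonyl-CoA, made by acetyl-CoA carboxylase, blocks Cpt1a, and AMP-activated kinase restrains the carboxylase. Of 10 genes of this control, 1 was higher and 4 lower in Male, and 2 were higher and 3 lower in KD. Acaca, a carboxylase gene, rose in Male from 120.8 ± 4.05 to 197.3 ± 4.71 CPM (0.71, adjusted p = 2.09e-08), and Mlycd, which degrades malonyl-CoA, fell by 0.48 (adjusted p = 2.59e-05). Acaca shares 33.505% of its 31-base subsequences with other genes, chiefly Gm5182, so its counts are uncertain. The other carboxylase gene of the list, Acacb, is not reported here. Prkab1, a kinase subunit, fell in Male by 0.35 (adjusted p = 3.61e-05) and in KD by 0.27 (adjusted p = 0.00179). Of 10 nuclear receptors and cofactors of the PPAR, ERR and PGC-1 families, 3 were higher and 5 lower in Male, and 3 were higher and 4 lower in KD. Ppard rose in Male by 0.56 (adjusted p = 3.9e-06), Rxrb fell by 0.56 (adjusted p = 2.88e-08), and the corepressor gene Nrip1 fell by 0.53 in Male (adjusted p = 2.86e-07) and rose by 0.18 in KD (adjusted p = 0.00516). Pprc1 was higher in both (0.34 and 0.18, adjusted p = 1.32e-06 and 0.000102).

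Of 12 other peroxisomal genes, 2 were higher and 7 lower in Male, and 2 were higher and 5 lower in KD. Cat, the catalase that removes peroxisomal hydrogen peroxide, rose by 0.18 in Male (adjusted p = 0.00179), and the peroxisomal protease gene Lonp2 fell by 0.41 in KD (adjusted p = 3.83e-05). Of the propionate and ketone body genes, 4 of 11 were higher and 3 lower in Male, and 3 of 10 were higher and 4 lower in KD. The 3-hydroxybutyrate dehydrogenase Bdh1 rose in Male by 0.73 (adjusted p = 4.35e-07). Of 11 genes of lipolysis and lipid droplets, 3 were higher and 3 lower in Male, and 1 was higher and 4 lower in KD. Dgat1, which makes triglyceride, fell by 0.85 in Male (adjusted p = 7.5e-09) and by 0.69 in KD (adjusted p = 4.86e-07). Plin2, a droplet coat protein, rose in Male by 0.59 (adjusted p = 8.78e-05), and Plin3 fell by 0.3 in Male (adjusted p = 8.37e-06) and by 0.57 in KD (adjusted p = 7.7e-06).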

How the data were processed

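RNA of 12 samples was extracted with a QIAGEN RNeasy Plus kit, and stranded libraries were made after ribosomal RNA depletion, per the labels' protocols. The submitters' processing notes name mm10, bcl2fastq 2.20.0, HISAT2, StringTie and DESeq2 without roles. The authors deposited 2 tables of whole-number counts per gene, unnormalized by their values, 1 per batch. With StringTie named, the counts may be derived from coverage, in which case they overstate the number of independent reads and standard errors and p-values are less certain. The counting options and the use of strand are not given in the sources used here. Of 55487 identifiers, 55227 matched GENCODE M21. The 260 others held 2.89% to 3.45% of a group's counts.

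Each table was fitted alone in edgeR 4.0.16 (R 4.3.3): filterByExpr, TMM and the quasi-likelihood test, group only, with Benjamini-Hochberg adjustment over all genes tested and calls at an adjusted p under 0.05. SE is the absolute log2 fold change over the square root of F. Exon lengths are merged exons of GENCODE M21. The fit was also run on simulated counts, drawn independently and with larger changes than most members had. Its outcome is not reported here, and no call rests on it. Groups came from the sample titles. Shares and ratios within a sample were compared by exact two-sided permutation tests. All 35 members were named. Of other lists, the rule allowed up to 2 called genes per direction and comparison, by smallest p, of which a part is named and some are not reported here. Members and lists were chosen with earlier results of these data known. Alternatives were other size factors, low-count filters, DESeq2 1.42.0, limma-voom (limma 3.58.1), a replicate block, all 12 samples in one fit, and leaving out each replicate. Length and GC trend removal and counts divided by 4, tried because of that doubt, were chosen after seeing the data.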

Additional observations from a re-analysis of the deposited data

How the results depend on the processing

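With all replicates, the 10 alternatives gave 13 to 14 genes higher and 15 to 18 lower in Male, 5 to 7 higher and 12 to 13 lower in KD, and 8 to 10 called in opposite directions. Leaving out 1 replicate gave 13 to 14 higher and 14 to 17 lower in Male, 5 to 6 higher and 11 to 13 lower in KD, and 7 to 11 opposite. Of the 32 genes called between the sexes, 23 were called in every alternative run, and of the 19 called in KD, 16. Direction changed only for genes that were not called. Echs1 in Male was 4.64e-06 with CPM above 1 in 3 samples and 0.085 with length and GC trends removed. Acaa1b in Male was 1.366 in limma-voom, 0.293 with the replicate block, and -0.937 to 0.864 without 1 replicate. In KD, upper-quartile factors gave 0.02 for Cpt1a, 0.00572 for Hadhb, 0.018 for Hadh and 0.018 for Decr2, and trend removal gave 0.00874 for Cpt1a and 0.0019 for Hadh. Without 1 replicate, KD values ran from -0.022 to 0.00725 for Cpt1a, -0.034 to 0.053 for Acad11, -0.06 to 0.018 for Hadhb, -0.041 to 0.00692 for Hadh, -0.019 to 0.128 for Eci1 and -0.079 to 0.028 for Decr2. Without division by length, the Acsl1 share differed by -0.813 points in Male and 0.646 in KD, and the Acsl6 share by -0.491 and 0.221, against -0.419, 0.314, -0.258 and 0.114 with it, since length weights the genes differently. Where a cause is not given here, the cause was not tested. With the replicate number as a block, 14 genes were higher and 16 lower in Male, 6 higher and 12 lower in KD, and 9 opposite. Deviations of same-numbered samples correlated at -0.0399 to 0.0206 and of different-numbered ones at -0.0352 to 0.041, so the numbers were not taken to pair samples. Acsl6 and Acaa1b had the fewest counts, which limits their precision.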
